A study of Caenorhabditis elegans with 6 samples.

Results

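The intermediate filament genes of the *C. elegans* intestine were followed in whole worms treated with baicalein, with its solvent or with water. Members were the probe sets to which a deposited comparison table gives a symbol beginning with ifa-, ifb-, ifc-, ifd-, ifp- or ifo-. The rule found 4 genes, each with 1 probe set, among 29317 probe sets on the array, of which 4956 have a name in either table. They were *ifb-2* (probe set 18481951), *ifd-2* (18624603), *ifp-1* (18621635) and *ifo-1* (18552583). Of 12 filament and filament organizer genes found in RefSeq, *mua-6* (also known as *ifa-2*) included, the other 8 are named by neither table and were not analysed here.

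All worms were wild-type N2, labelled as young adults 3 days after hatching, and RNA came from whole animals. The treated group received 100 µM baicalein, a trihydroxyflavone dissolved in DMSO, the solvent group 0.4% DMSO and the water group no compound. Treatment in S medium began 16 to 18 h after hatching and lasted 48 h at 20 °C. There were 6 Affymetrix arrays, 2 for each group, numbered as trials 1 and 2, which is fewer for each group than the samples that the methods describe. Values are log2 intensities made by the authors with RMA (Robust Multiarray Average), and the median over all probe sets of their mean value, 1.56, is read as little signal over background. The number of arrays limits the precision. The labels call the trials independent but do not name separate cultures, so the spread behind the p-values may be technical in part.

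The lumen of the worm gut is lined by microvilli, and below them lies the endotube, a dense sheath of intermediate filaments attached to the apical cell junctions. The filament proteins IFB-2, IFD-2 and IFP-1 are known from this sheath, in which IFB-2 can pair with polypeptides of the other classes. IFO-1 is an organizer rather than a filament subunit, and without it the filaments gather at the junctions. The sheath gives the intestinal tube its mechanical and stress resistance. RNA was measured here, and the amount or place of the proteins was not.

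The water arrays went against their label before any filament gene was compared. The yolk protein gene *vit-2*, an adult marker made in the intestine, had 10.5 and 10.3 with baicalein, 10.1 and 10.1 with DMSO, and 1.45 and 1.70 in water. The gene *noah-1*, for a matrix protein of the molting worm, had 2.16 and 1.85 with baicalein, 1.45 and 1.20 with DMSO, and 8.49 and 8.60 in water. Of 6 named genes of an adult list, none chosen by the table of DMSO against water, 6 were higher with DMSO than in water, with summed linear levels of 4150 to 4320 with DMSO and 20.7 to 29.0 in water, where 2 of the 6 were at or under background. Of 10 named genes of a molting list, 9 were lower with DMSO and 1 higher, with sums of 139 to 145 with DMSO, where 6 were at or under background, and of 1170 to 1240 in water. That table chose 8 of these 10, and of the other 2, 1 was lower and 1 higher. Stage and treatment therefore cannot be told apart in any comparison with water, and none of them can be repeated here without these arrays. At an adjusted p under 0.05 from limma, 507 probe sets were higher and 2060 lower with baicalein than with DMSO. DMSO gave 3183 higher and 4890 lower than water (10.9% and 16.7% of all probe sets), and baicalein 1992 and 4513.

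*ifb-2* is the gene of the filament subunit that pairs with the other classes. It had 7.39 and 7.67 with baicalein, 6.69 and 6.53 with DMSO, and 8.22 and 8.41 in water. The groups did not overlap, and the order was water, then baicalein, then DMSO. Its group means were 7.53 ± 0.199 with baicalein, 6.61 ± 0.117 with DMSO and 8.31 ± 0.131 in water (SD, n = 2 each).

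*ifo-1*, the gene of the filament organizer, kept the same order of groups. It had 5.03 and 4.68 with baicalein, 4.40 and 3.83 with DMSO, and 6.28 and 6.72 in water. No groups overlapped, although the nearest baicalein and DMSO arrays were 0.28 apart while the DMSO arrays themselves were 0.57 apart. The means were 4.86 ± 0.248 with baicalein, 4.11 ± 0.403 with DMSO and 6.50 ± 0.313 in water (SD, n = 2 each).

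*ifd-2*, a filament subunit gene, separated water from the other groups. It had 4.10 and 4.16 with baicalein, 4.04 and 3.99 with DMSO, and 5.72 and 6.16 in water. Baicalein and DMSO arrays were 0.06 apart at their nearest, against a gap of 0.44 between the water arrays. *ifp-1*, another subunit gene, had 2.46 and 2.11 with baicalein, 1.94 and 2.41 with DMSO, and 4.95 and 5.37 in water. Its baicalein and DMSO arrays overlapped and lay less than 1 log2 unit over background, so a further change downwards could hardly be read there.

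**Figure D1:**
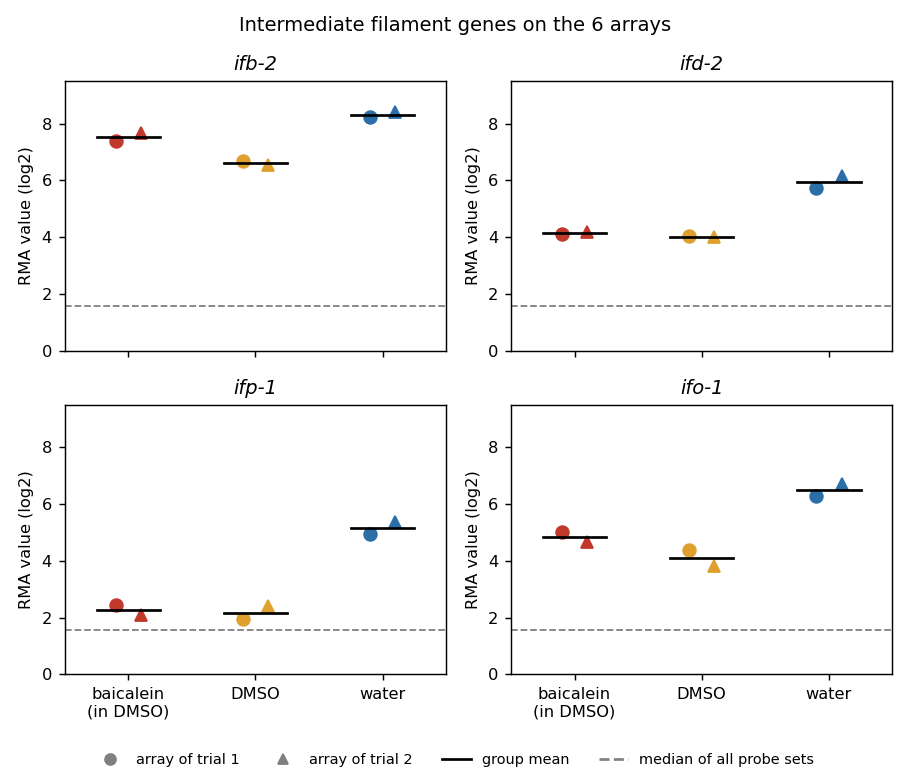
Values of the 4 intermediate filament genes (log2 RMA value, vertical axis) on each array of the baicalein, DMSO and water groups, with circles for trial 1, triangles for trial 2, a bar for the group mean and a dashed line at the median of all probe sets (1.56). Water arrays are highest in every panel, and the baicalein arrays of *ifb-2* lie between DMSO and water while those of *ifp-1* overlap with DMSO.

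The comparison of baicalein with DMSO sets the flavonoid against its solvent. Adult and germline values differed between these groups too. Of 6 named adult genes, all chosen by this comparison's table, 3 were lower with baicalein and 3 did not pass. The germline and embryo marker *mex-3* had a mean of 6.31 with baicalein and 8.15 with DMSO. The part of stage or germline content in this comparison was not tested. *ifb-2* was 0.92 higher on the log2 scale (95% interval 0.47 to 1.37), or 1.89-fold, and was called higher (adjusted p = 0.033 from limma). It is named only because the authors' table of this same comparison lists it, so this value is a description and no separate evidence. The difference was 0.69 in trial 1 and 1.14 in trial 2.

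*ifo-1*, which this table did not choose, lay 0.74 higher with baicalein (95% interval 0.09 to 1.40), or 1.67-fold, with adjusted p = 0.177 from limma. Both trials gave a positive difference, 0.63 and 0.85. It passed the threshold after quantile normalization applied again (1.19, adjusted p = 0.0291) and after cyclic loess normalization (1.06, adjusted p = 0.0265). Its DMSO arrays were among the values by which the other table named it, and a low value on them raises this difference.

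*ifd-2* and *ifp-1* did not pass. The difference of *ifd-2* was 0.12 (95% interval -0.36 to 0.60, adjusted p = 0.821 from limma), and that of *ifp-1* was 0.11 (95% interval -0.50 to 0.72, adjusted p = 0.869). These values moved with the scaling and gave no call: *ifd-2* had 0.66 after quantile normalization applied again and 0.51 after cyclic loess, and *ifp-1* had 0.15 and 0.54. For *ifp-1* the trials pointed opposite ways, 0.52 and -0.30. A difference in response between the genes was not tested.

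Of the 4 genes, 1 was called higher and none lower, where 1.73% of all probe sets were called higher and 7.03% lower. The 3 genes that this table did not choose gave 0 calls with limma. Without the adjustment 1 of them, *ifo-1*, passes with limma, beside 2280 of the 29317 probe sets higher and 3866 lower. In the methods' analysis of variance *ifo-1* does not pass, even without the adjustment. Its DMSO arrays were among the values that chose it, so nothing is read from this pass. Of the 3 genes, 2 (*ifo-1* and *ifd-2*) had baicalein arrays above the DMSO arrays with no overlap, against 24.1% of all probe sets. The gap was 0.06 for *ifd-2*. The table that chose the 3 favours low DMSO arrays, which can raise that count, so nothing is read from it. The median difference of the 4 genes, the chosen *ifb-2* included, was 0.43 and that of all probe sets 0.05.

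The difference of *ifb-2* stayed between 0.78 and 1.06 under the 15 alternatives, while its call did not hold under all of them. The call was lost in 9 of them. These include only the compared groups (adjusted p = 0.0858 from limma), arrays centred on medians (0.0505) and the trial as a block (0.0512). The methods' analysis of variance lost it too (adjusted p = 0.159). The other losses came without DMSO replicate 1 (difference 1.00), DMSO replicate 2 (0.83), baicalein replicate 2 (0.78) or either water replicate. Leaving out a water replicate or adding the block left the difference itself at 0.92. Without DMSO replicate 1 no probe set of the array passed (smallest adjusted p = 0.0624), and before adjustment 1658 were higher and 3224 lower.

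**Figure D2:**
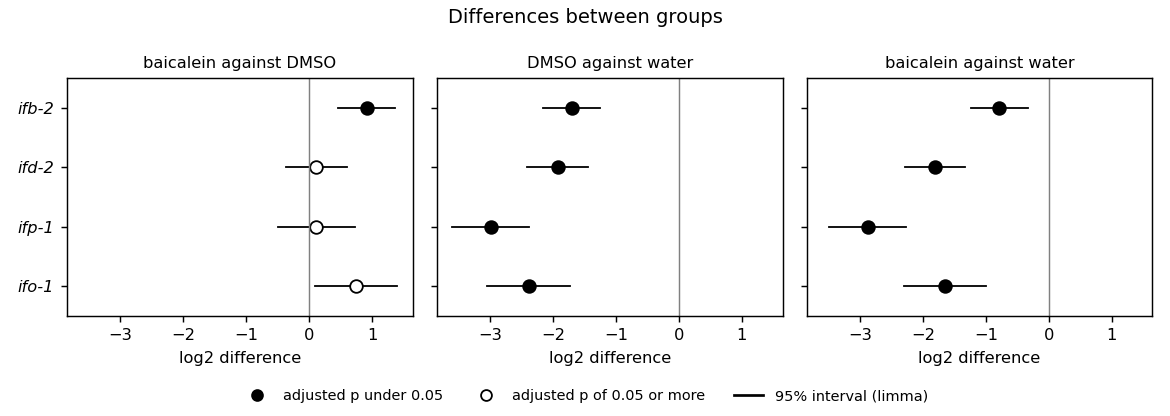
Log2 differences of the 4 genes in the 3 comparisons (horizontal axis, first group minus second), with 95% intervals from limma and filled circles for an adjusted p under 0.05. The differences from water are all negative, from -2.99 to -0.78, and those between baicalein and DMSO run from 0.11 to 0.92.

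The comparison of DMSO with water addresses the solvent. All 4 genes lay lower with DMSO, with a median of -2.16 against 0.09 for all probe sets. *ifp-1* differed by -2.99 (95% interval -3.60 to -2.38), the largest difference of the 4, and was 7.94-fold higher in water. *ifo-1* differed by -2.39 (-3.04 to -1.74) and *ifd-2* by -1.93 (-2.41 to -1.45). These 3 genes are named because the authors' table of this comparison lists them, so their values are given without a test.

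*ifb-2* is not in that table. With DMSO it was lower by a log2 difference of -1.70 (95% interval -2.15 to -1.25, adjusted p = 0.000941 from limma), and was 3.25-fold higher in water. The difference was -1.53 in trial 1 and -1.88 in trial 2. The comparison that chose *ifb-2* shares the DMSO arrays, so the choice favours a low value there. Its call held under all 15 alternatives tried, with differences from -1.79 to -1.59, and adjusted p from 0.000216 to 0.025 in the 14 that adjust.

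In all, 4 of 4 genes were called lower where 16.7% of all probe sets were called lower and 10.9% higher. For 3 of the 4 nothing is read from that count, since the table chose them. For *ifb-2*, which it did not choose, 7.17% of all probe sets had a difference as low or lower. The choice of *ifb-2* by the other table favours low DMSO arrays and so such a difference. The arrays of the 2 groups did not overlap for any of the 4 genes, against 31.9% of all probe sets with DMSO lower. With arrays centred on their medians the median of all probe sets became 0.20, and the 4 differences then lay between -2.88 and -1.59.

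Against water, the baicalein arrays were lower for all 4 genes. Neither table covers this comparison, but it shares the water arrays with the table that named 3 genes and the baicalein arrays with the table that named *ifb-2*. The first choice favours high water arrays for *ifp-1*, *ifd-2* and *ifo-1*. Their falls, p-values and part in the counts below are therefore a description. *ifp-1* fell by 2.88 (adjusted p = 0.000484 from limma), *ifd-2* by 1.81 (adjusted p = 0.00125), *ifo-1* by 1.65 (adjusted p = 0.00684) and *ifb-2* by 0.78 (adjusted p = 0.028). The count of 4 of 4 lower stands beside 15.4% of all probe sets called lower and 6.79% called higher. The arrays did not overlap for any of the 4, as for 31.3% of all probe sets with baicalein lower.

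Read as a share of the distance between DMSO and water, the baicalein mean lay 53.9% of the way towards water for *ifb-2* and 31.1% for *ifo-1*. It lay 6.04% of the way for *ifd-2* and 3.79% for *ifp-1*. Other scalings moved these shares. After quantile normalization applied again they were 49.5% for *ifb-2*, 47.7% for *ifo-1*, 32.6% for *ifd-2* and 5.45% for *ifp-1*, and after cyclic loess 52.2%, 42.4%, 24.9% and 18.6% in the same order of genes. For *ifp-1* the share was -4.36% without DMSO replicate 1 and -2.08% without baicalein replicate 1. The shares carry the error of both differences and are given as a description, and the alternatives to them were chosen after seeing the data. The tables that named the genes used these same differences. The choice of *ifb-2* favours a large difference between baicalein and DMSO, and that of the other 3 a large distance between DMSO and water. The shares of the genes are therefore not compared. The fall of *ifb-2* against water lost its call without either water replicate (adjusted p = 0.0992 and 0.185 from limma), either DMSO replicate (0.0531) or baicalein replicate 1 (0.058), and that of *ifo-1* without water replicate 2 (0.0563).

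In a whole worm, less filament RNA in the intestine and a smaller share of intestinal RNA in the animal cannot be told apart. Other genes of the intestine bear on this as measurements. *act-5*, the actin gene of the microvilli, had 8.99 and 9.11 with baicalein, 8.45 and 8.10 with DMSO, and 8.86 and 8.84 in water, with a difference of -0.58 between DMSO and water (adjusted p = 0.0651 from limma). *vha-6*, a subunit gene of the apical proton pump, had 8.58 and 8.54 with baicalein, 7.99 and 7.94 with DMSO, and 7.66 and 7.80 in water. *cpr-1*, a gut cysteine protease gene, rose by 0.98 with DMSO against water (adjusted p = 0.00653), in the comparison that named it. *pept-1*, a peptide transporter gene, had 2.91 and 2.83 with baicalein, 2.91 and 2.76 with DMSO, and 4.16 and 4.21 in water. It differed by -1.35 between DMSO and water, in the comparison that named it.

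Of 24 intestine genes on a list, 9 are named. With DMSO against water 5 were higher, 2 lower and 2 did not pass, with a median of 0.61, and of the 6 that this comparison's table did not choose 2 were higher and 2 lower. Of all probe sets 10.9% were called higher there and 16.7% lower. With baicalein against DMSO 3 were higher and 6 did not pass, with a median of 0.73. In that comparison 1.73% of all probe sets were called higher, and of the 3 intestine genes that its table did not choose none passed. The summed linear level of the 9 was 2730 to 2770 with baicalein, 1640 to 1820 with DMSO and 517 to 575 in water, where *ftn-1*, a ferritin gene, is under background and *vit-2* near it. Without *vit-2*, an alternative chosen after seeing the data, the sums were 1330 to 1450 with baicalein, 570 to 690 with DMSO and 514 to 572 in water. *mtl-1* and *mtl-2*, which encode metallothioneins, were 2.20 and 2.57 higher on the log2 scale with baicalein than with DMSO, in the comparison that named them. The summed level of the 4 filament genes was 223 to 252 with baicalein, 128 to 145 with DMSO and 460 to 558 in water. The part of tissue share and stage in these values was not tested.

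Genes that keep the filament sheath in order were also named. The list of stress kinases and filament order holds 10 genes, of which 3 are named. *sma-5*, a MAP kinase gene whose loss deforms the intestinal tube and its filaments, had 3.14 and 2.80 with baicalein, 2.87 and 2.82 with DMSO, and 4.88 and 5.21 in water. The baicalein arrays enclosed those of DMSO, and the water arrays stood apart. Its difference was -2.20 for DMSO against water, the comparison whose table names it, and 0.13 for baicalein against DMSO (adjusted p = 0.811 from limma).

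*bbln-1* encodes a small coiled-coil protein without which the filaments form bubble-shaped invaginations of the apical membrane. It had 7.04 and 6.95 with baicalein, 6.09 and 5.99 with DMSO, and 8.37 and 8.42 in water, the same order of groups as *ifb-2*. It fell by 2.35 with DMSO against water (adjusted p = 0.000137 from limma) in a comparison whose table did not choose it. With baicalein against DMSO it was 0.95 higher, in the comparison that named it. That choice used the same DMSO arrays and favours low values on them, so the fall is not independent of it. *mek-2*, a kinase gene of the ERK pathway, lay 0.75 lower with baicalein than with DMSO in the comparison that named it, and differed by -0.25 between DMSO and water (adjusted p = 0.33).

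**Figure D3:**
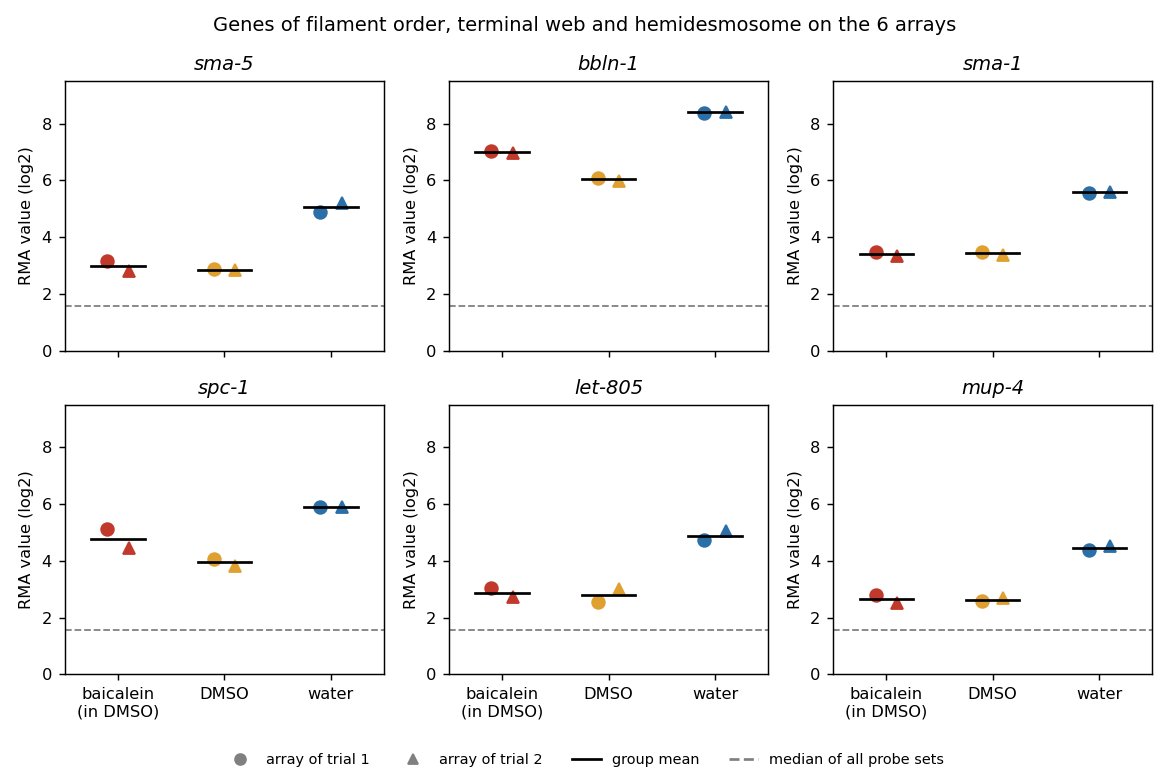
Values (log2 RMA value) on each array of the baicalein, DMSO and water groups for *sma-5* and *bbln-1* (filament order), *sma-1* and *spc-1* (terminal web spectrins) and *let-805* and *mup-4* (hemidesmosome), drawn as for the filament genes. Water is highest in all 6 panels, and *bbln-1* with baicalein, near 7.0, lies between DMSO and water.

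The brush border and terminal web, to which the sheath is attached from below, had 11 of 25 listed genes named. With DMSO against water 6 were lower, 1 higher and 4 did not pass, with a median of -1.14, and of the 7 that this comparison's table did not choose 2 were lower and 1 higher. Of all probe sets 16.7% were called lower there and 10.9% higher. The spectrin genes *sma-1* and *spc-1* differed by -2.16 and -1.95, the ABC transporter gene *pgp-1* by -2.04 and the peptide transporter gene *pept-1* by -1.35. *pgp-1* had 1.41 and 1.38 with DMSO, which lies under background. With baicalein against DMSO 1 of the 11 was higher, 1 lower and 9 did not pass, with a median of 0.42, and of the 4 chosen by the other table none passed. Of all probe sets 1.73% were called higher there and 7.03% lower. *sma-1* differed by -0.01 (adjusted p = 0.981 from limma) and *spc-1* by 0.83 (adjusted p = 0.11).

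The genes of cell polarity and of the apical junctions, to which the sheath is attached, ran in other directions. Of 18 listed genes 5 are named, all through the table of baicalein against DMSO. With baicalein 4 of the 5 were lower than with DMSO and 1 did not pass, with a median of -1.41. Of all probe sets 7.03% were called lower there. *par-3* and *pkc-3*, polarity genes, lay 2.11 and 1.39 lower, *hmp-1* (alpha-catenin) 1.41 lower and *inx-3* (a gap junction innexin) 2.02 lower. Between DMSO and water, where the table did not choose them, 2 were higher and 3 did not pass. There 10.9% of all probe sets were called higher. Par proteins and catenin are also used in the early embryo, and the germline and embryo marker *mex-3* had 6.54 and 6.09 with baicalein, 8.22 and 8.08 with DMSO, and 5.25 and 5.05 in water. The germline receptor gene *glp-1* had 2.84 and 3.05 with baicalein, 4.31 and 4.47 with DMSO, and 2.16 and 2.14 in water. The part of these cells in the junction values was not tested.

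Hemidesmosomes fasten the epidermal intermediate filaments, of a different class, to the cuticle and to muscle. The list used for them also holds the integrin gene *pat-2* and a gene that is on the brush border list too. Its counts are therefore not of hemidesmosome parts alone. Of 19 listed genes 8 are named, and 7 were lower with DMSO than in water while 1 did not pass, with a median of -1.78. Of all probe sets 16.7% were called lower there. Of the 3 that the table of DMSO against water did not choose 2 were lower. The matrix receptor genes *mua-3*, *let-805* and *mup-4* differed by -2.54, -2.11 and -1.83, and the integrin gene *pat-2* by -1.97. With baicalein against DMSO none of the 8 passed, with a median of 0.03. *mua-3* had 1.24 and 1.46 with DMSO, under background.

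**Figure D4:**
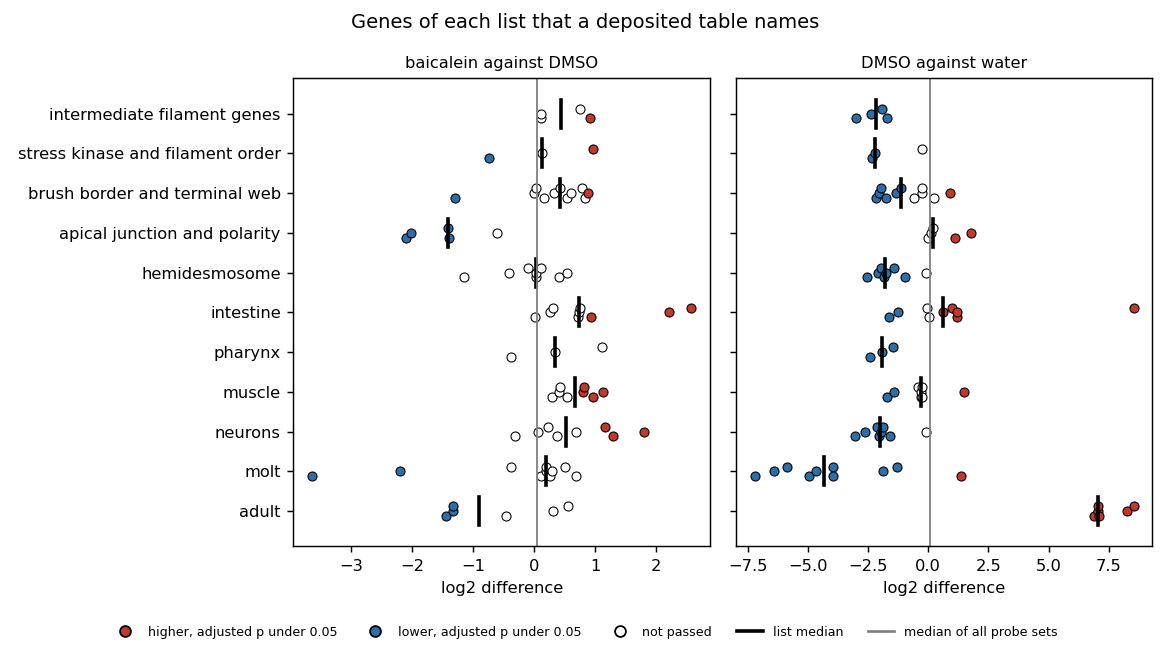
Log2 differences of every named gene of each list between baicalein and DMSO and between DMSO and water (horizontal axes, of different length), coloured by the limma call, with the list median as a bar and the median of all probe sets as a line. In DMSO against water the 4 filament genes lie between -2.99 and -1.70, and the molting and adult lists lie far out at medians of -4.33 and 7.07.

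Likeness of pattern was measured as Pearson's r over the 6 arrays among 2688 named probe sets over background with a range of at least 1 on the log2 scale. Such an r over 3 groups of 2 arrays mostly follows the group means. *ifd-2* and *ifp-1* had r = 0.988 with each other, *ifd-2* and *ifo-1* 0.951, and *ifb-2* and *ifo-1* 0.939. The lowest value among the 4 genes was 0.832, between *ifb-2* and *ifp-1*.

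The probe set most like *ifp-1* was that of *let-805* (r = 0.999), for the hemidesmosome receptor myotactin, and *mup-4* was the fifth (r = 0.997), with T04C9.8, T19D2.11 and *tag-297* between them. For *ifd-2* the nearest were *cest-12*, a carboxylesterase gene, and 4 genes without a common name (C14A4.12, Y39D8A.1, F33H12.7 and AC3.5). For *ifb-2* they were *nlp-81*, *dhs-9* (a dehydrogenase), *unc-115* (an actin-binding protein), F58H1.7 and *hrg-7*, with r up to 0.998. For *ifo-1* they were *ttr-48*, *mfsd-12*, K02E2.15, F53H8.3 and C34H4.1, with r up to 0.998.

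High r was common. It passed 0.95 for 316 of the 2688 probe sets with *ifp-1* (11.8%), 318 with *ifd-2* (11.8%), 223 with *ifo-1* (8.3%) and 139 with *ifb-2* (5.17%). All 5 nearest to *ifp-1* and to *ifd-2* were named by the table of DMSO against water alone. Those nearest to *ifo-1*, which the same table named, came from the table of baicalein against DMSO, as did those nearest to *ifb-2*, with *unc-115* in both.

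**Figure D5:**
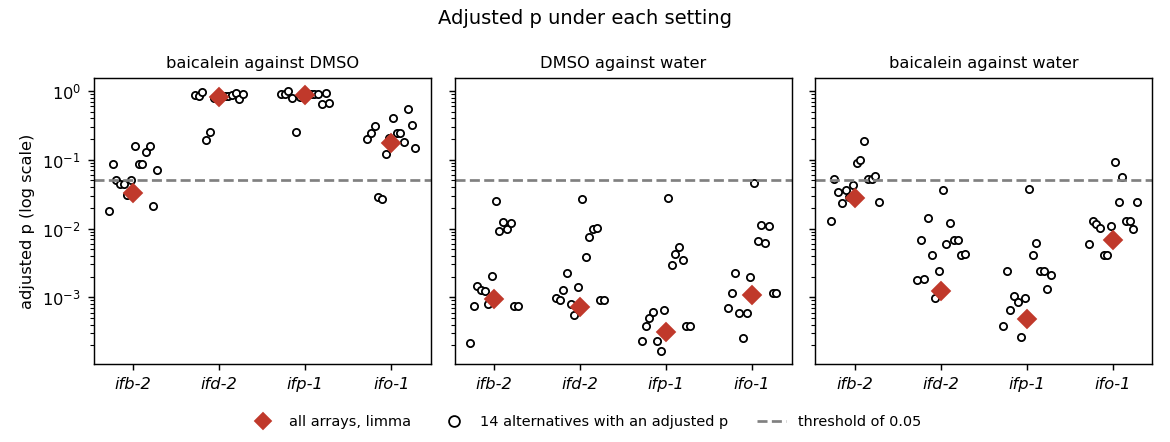
Adjusted p (vertical axis, log scale) of the 4 genes in the 3 comparisons with all arrays in limma (diamonds) and under 14 alternatives (circles), with the threshold of 0.05 dashed. In DMSO against water every point lies under the threshold, with 0.0453 the highest, while in baicalein against DMSO the points of *ifb-2* lie on both sides, from 0.018 to 0.159. Genes that the same comparison's table chose are shown as a description.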

How the data were processed

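RNA of whole worms was measured on 6 Affymetrix gene arrays in 3 groups. The authors describe the deposited log2 values as made with RMA (background correction, log2 transformation and quantile normalization). Upper quartiles over the probe sets were 3.23 and 3.26 in water, 3.00 and 2.78 with DMSO, and 2.74 and 2.46 with baicalein. The arrays thus do not share 1 distribution of values, and the order follows the groups, which limits every comparison. Array annotation and its build are not given in the sources used here, so no coordinates are printed.

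Gene names came from tables deposited by the authors, which keep only entries at the authors' own p of 0.05 or less. Absence from a table is not read as failure of that p. *vit-2*, 8.53 higher on the log2 scale with DMSO than in water here, is not named by that comparison's table. Their ratios, fold changes, p-values and F scores were not used. A comma in the description had shifted 113 rows, which were realigned. RefSeq names (WBcel235) matched 4299 of 4956 named probe sets by accession.

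limma 3.58.1 in R 4.3.3 fitted the 3 groups to all arrays, leaving 3 residual degrees of freedom (prior 3.51). The Benjamini-Hochberg adjustment ran over all 29317 probe sets. No probe set was filtered. Python 3.11.15 drew the figures. The fit was tested on simulated data.

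The members and gene lists were chosen with earlier results of these data known. Genes named are all members, up to 4 per list with the smallest p in the comparison whose table names them, the cell type markers *act-5*, *vha-6*, *vit-2*, *mex-3* and *glp-1*, and the 5 probe sets of highest r with each member. Alternatives were a variance trend, only the compared groups, other scalings, dim probe sets left out, a trial block, the methods' analysis of variance without moderation, and each array left out.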

Additional observations from a re-analysis of the deposited data

How the results depend on the processing

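The fall of *ifb-2* in DMSO against water kept its direction and call under all 15 alternatives. The table that chose *ifb-2* shares the DMSO arrays, so its fall is not independent of that choice. The other 3 genes were lower in every setting too, from which nothing is read, since the table of DMSO against water chose them. In baicalein against water, which shares the water arrays with the table of DMSO against water, the falls of *ifd-2* and *ifp-1* kept their call too. The only change of sign among the 12 differences was that of *ifp-1* for baicalein against DMSO, at -0.12 without DMSO replicate 1 and -0.06 without baicalein replicate 1, where it had no call. With each array left out it reached 0.35 at the highest, and with cyclic loess normalization 0.54. *ifd-2* ran from 0.02 with arrays centred on medians to 0.66 with quantile normalization applied again, with no call. The number of filament genes higher with baicalein than with DMSO, 1, became 0 with only the compared groups, with arrays centred on medians, with the replicate block and with the methods' test after adjustment. It became 2 with quantile normalization applied again and with cyclic loess normalization, and lay between 0 and 1 with each array left out. Against water, 4 genes lower became 2 with the methods' test after adjustment, and 2 to 4 with each array left out, where 2 is the count without water replicate 2.

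Of all probe sets, 2567 were called for baicalein against DMSO, and 1178 with only the compared groups, 1 with the methods' test after adjustment, 5032 without it and 0 to 4215 with each array left out, where 0 is the count without DMSO replicate 1 (before adjustment 1658 higher and 3224 lower), 484 that without DMSO replicate 2, 1178 that without either water replicate and 4215 that without baicalein replicate 1. For DMSO against water the 8073 calls were 3845 with the methods' test after adjustment and 5145 to 9839 with each array left out, and for baicalein against water the 6505 calls were 2454 and 3329 to 8825. Among the left-out arrays, both had the fewest calls without a water replicate, with 5145 and 5207 calls for DMSO and 3584 and 3329 for baicalein without water replicates 1 and 2. A left-out array leaves its group with 1, which is assumed to vary like the others. The share of higher calls was 19.8% for baicalein against DMSO, 45.9% with quantile normalization applied again and 42.5% with cyclic loess. It was 30.6%, 46.7% and 45.9% for baicalein against water.

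Arrays of the same trial number deviated together with r = 0.16 between baicalein and DMSO, -0.07 between baicalein and water and -0.05 between DMSO and water, so the numbers were not taken to pair the arrays. With the trial as a replicate block, probe sets called were 418 higher and 1941 lower for baicalein against DMSO, and *ifb-2* had adjusted p = 0.0512 from limma. It changed no other call of the 4 genes. The cause of these changes was not tested. Other background corrections and a scan batch were not run, since only processed values were used.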

Other observations

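Tissues without the intestinal sheath gave their own values on these arrays. Beside the counts below, 10.9% of all probe sets were called higher and 16.7% lower with DMSO against water. For baicalein against DMSO these shares were 1.73% and 7.03%. Of 8 named neuronal genes, 7 were lower with DMSO than in water and 1 did not pass, with a median of -2.01, and of the 5 that this comparison's table did not choose 4 were lower. With baicalein against DMSO 3 of the 8 were higher, *sbt-1*, *egl-3* and *egl-21*, and 5 did not pass. That comparison's table named all 3, and of the 3 neuronal genes that it did not choose none passed. *egl-21*, for a carboxypeptidase, had log2 differences of 1.28 for baicalein against DMSO, which named it, and of -2.14 for DMSO against water (adjusted p = 0.000244 from limma), as *bbln-1* had 0.95 and -2.35. The choice of both genes used the same DMSO arrays and favours low values on them. *egl-3* falls outside the rule for named genes and was chosen after its values were seen.

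Of 3 named pharynx genes all 3 were lower with DMSO than in water, in the comparison whose table chose all 3, and with baicalein against DMSO none passed. Of 8 named muscle genes 4 were higher with baicalein than with DMSO and 4 did not pass, with a median of 0.67, and of the 2 that its table did not choose 1 was higher. With DMSO against water 1 was higher, 2 lower and 5 did not pass, with a median of -0.31, and of the 5 that its table did not choose none passed. The troponin gene *tni-3* was higher in both comparisons, by 0.95 (adjusted p = 0.0388 from limma) and 1.48. With baicalein against DMSO 3 of the 6 named adult genes were lower, with a median of -0.90, and 2 of the 10 named molting genes were lower, with a median of 0.19. Its table chose all 6 adult genes and the 2 molting genes that were lower, and of the 7 molting genes that it did not choose none passed. Without DMSO replicate 1 no probe set passed for baicalein against DMSO, these genes included.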
